A study of Mus musculus with 12 samples.

Results

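Wild type mouse kidneys at day 5 of unilateral ureteral obstruction (UUO) were compared with wild type kidneys at day 0 across the whole transcriptome. The comparison used 5 of the 12 RNA sequencing libraries of the series, 3 from day 5 and 2 from day 0, chosen by genotype and time alone. Of 55471 genes in the table, 33465 had at least 1 read in some library and 18093 had enough reads to be tested. The tested genes held 99.9% of all reads.

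The mice were of strain C57/BL6, were 8 to 12 weeks old and carried intact Sprr2f. A nontraumatic clamp closed the left ureter, and RNA was prepared from the frozen left kidney. The labels describe the surgery for knockout animals only and do not state what was done to the day 0 mice. Sprr2f knockout kidneys of the same strain, 4 from day 0 and 3 from day 5, entered the statistical fit to steady the estimate of spread and are compared with the wild type near the end. The 5 wild type libraries held 16642432 to 19355574 reads counted to genes. The labels call each library a separate sample without saying that each came from its own animal, and each p-value therefore reflects how these samples vary, part of which may be technical.

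Sex-chromosome transcripts divided the libraries, although the title of the series speaks of female mice. Day 0 replicate 1 and day 5 replicate 3 carried Y-linked transcripts at 141 and 170 CPM (reads of a gene per library, scaled to one common total), with Xist, the RNA that silences an X chromosome, at 0.740 and 0.672 CPM. Day 0 replicate 2 and day 5 replicates 1 and 2 held Xist at 481, 788 and 871 CPM and Y-linked transcripts at 0.597 CPM or less. The groups therefore differ in their share of Y-linked libraries, 1 of 2 at day 0 and 1 of 3 at day 5. Kidney identity was clear in all of them: the 10 listed proximal tubule markers summed to 12050 and 13630 scaled CPM at day 0 and to 1760 to 2804 at day 5. Of the listed markers of tissues beside the kidney, Ckm and Myh4 of skeletal muscle and Cyp11b2 of the adrenal cortex had no read in any wild type library. Others on these lists did have reads. Acta1 stood at 3.023 scaled CPM in day 5 replicate 3, Myh1 at 2.055 in day 0 replicate 2 and Dbh at 1.26 in day 5 replicate 2. Star stood at 4.66 to 5.293 in all wild type libraries.

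The kidney tubule is an epithelium that reabsorbs most of what the glomerulus filters, and its proximal part is packed with mitochondria to power that transport. When the ureter is blocked, pressure rises in the tubules, and the obstructed kidney is known to lose transport function, take up immune cells and lay down interstitial matrix. The model is widely used to study how injured tubules dedifferentiate and how renal fibrosis begins.

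Levels below are scaled CPM, the deposited CPM divided by a trimmed-mean (TMM) factor for each library. Values are listed for day 0 replicates 1 and 2 and then for day 5 replicates 1, 2 and 3. Fold changes are differences of log2(scaled CPM + 0.5) with standard errors from limma, a linear model fitted to all genes together, and they understate the change of genes with few reads. Genes were called at a Benjamini-Hochberg adjusted p under 0.05. In whole-kidney RNA, fewer cells of a type and less RNA per cell cannot be told apart.

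At day 5, 4440 genes had risen (24.5% of those tested) and 4087 had fallen (22.6%), 47.1% in all. A rise of at least 2-fold was called for 2277 genes (12.6%) and a fall of at least 2-fold for 1493 (8.25%). The rises reached further: 671 genes rose and 238 fell at least 4-fold, 149 and 37 at least 8-fold, 43 and 2 at least 16-fold, and 12 and 1 at least 32-fold. Among called genes the median size of change was 1.03 log2 units for rises and 0.80 for falls. Small changes made up much of the response, since 2163 of the called rises and 2594 of the called falls were under 2-fold. The 2 groups of libraries did not overlap for 65.1% of all tested genes, and for 4432 of the genes called higher and 4063 of those called lower.

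**Figure D1:**
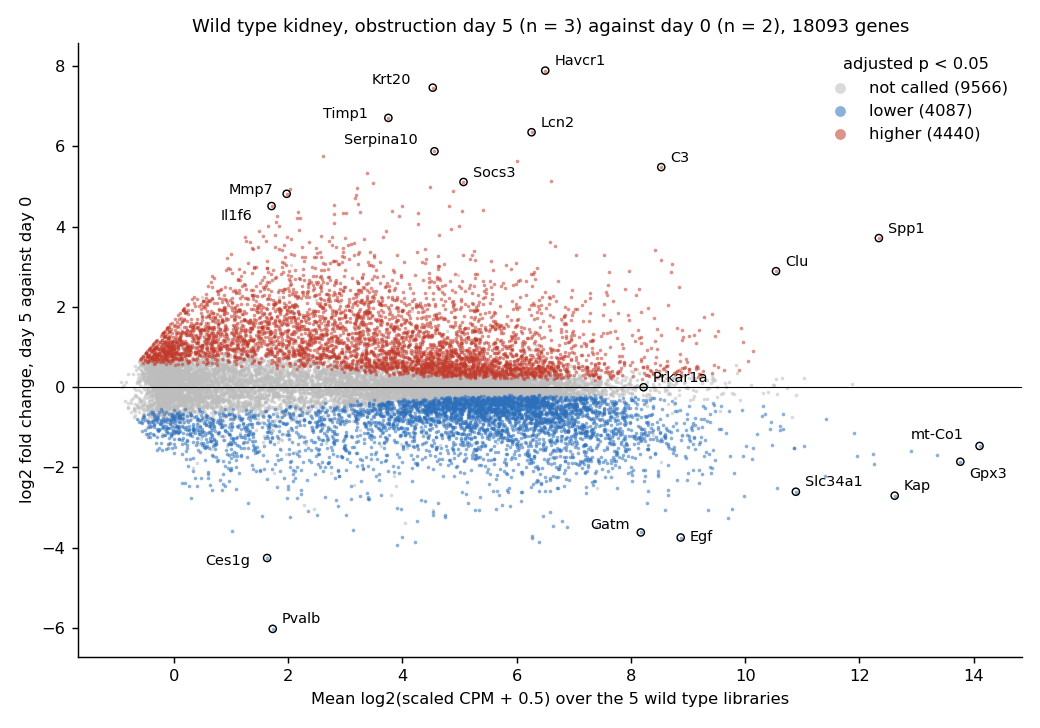
Each point is 1 of 18093 tested genes, with its mean log2(scaled CPM + 0.5) over the 5 wild type libraries on the horizontal axis and its log2 fold change at day 5 against day 0 on the vertical axis. Red points are the 4440 genes called higher and blue points the 4087 called lower, and the rises extend to 7.89 log2 units (Havcr1) while the deepest fall is -6.02 (Pvalb).

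The split between rises and falls depended on the scaling. The TMM factors were 1.18 to 1.19 at day 5 and 0.874 and 0.897 at day 0. Mitochondrially encoded transcripts took 3.89% to 4.02% of reads at day 5 and 8.95% and 9.09% at day 0. Without the factors the median log2 fold change over all genes went from 0.035 to 0.40, and 81.05% of calls were rises (8560 higher, 2001 lower) against 52.07% with them; settings without factors are called library size alone below. All changes here are relative to the factors, except values given for library size alone and the read ratios of near-silent genes. With the sex-chromosome pattern as a covariate, 4799 genes were called higher and 4563 lower.

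The transcript pool itself was redistributed. Genes called higher held 9.77% and 10.1% of the scaled CPM of tested genes at day 0 and 28.4%, 27.0% and 28.4% at day 5. Genes called lower held 62.7% and 61.7% at day 0 and 35.4%, 36.5% and 35.2% at day 5. The direction of these shares was fixed by the calls, which come from the same libraries, so only their size is described. The day 0 pool was concentrated in few genes: the most abundant 602 and 648 genes made up 50% of it, and at day 5 this took 1179, 1182 and 1142 genes. The 100 most abundant genes at day 0 were picked by their day 0 level, which favours falls. Of these 100 genes, 79 fell and 1 rose, with a median log2 fold change of -1.47. Only 50 of them were also among the 100 most abundant at day 5, a set in which 35 genes had risen and 33 had fallen.

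Calls followed the level of a gene. Among the 3619 genes in the highest quintile by mean log2 level over the 5 libraries, 44.4% fell and 19% rose, but with library size alone 1675 rose and 896 fell. In the second lowest quintile 12.8% fell and 32.9% rose. In the lowest quintile 2620 of 3619 genes were not called. Protein-coding genes were called more often than other kinds, with 4121 of 15100 higher and 3637 lower. Long intergenic noncoding RNAs had more falls than rises (139 and 85 of 613), as had RNAs from bidirectional promoters (28 and 5 of 103) and processed pseudogenes (53 and 23 of 519). Under library size alone these 3 groups instead had more rises (157 higher and 95 lower, 18 and 12, and 83 and 28). Among protein-coding genes sorted by the length of their longest transcript, falls numbered 867 of 3020 in the shortest quintile and 594 of 3016 in the longest, and rises 753 and 816. With library size alone these quintiles had 487 and 224 falls and 1321 and 1738 rises.

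**Figure D2:**
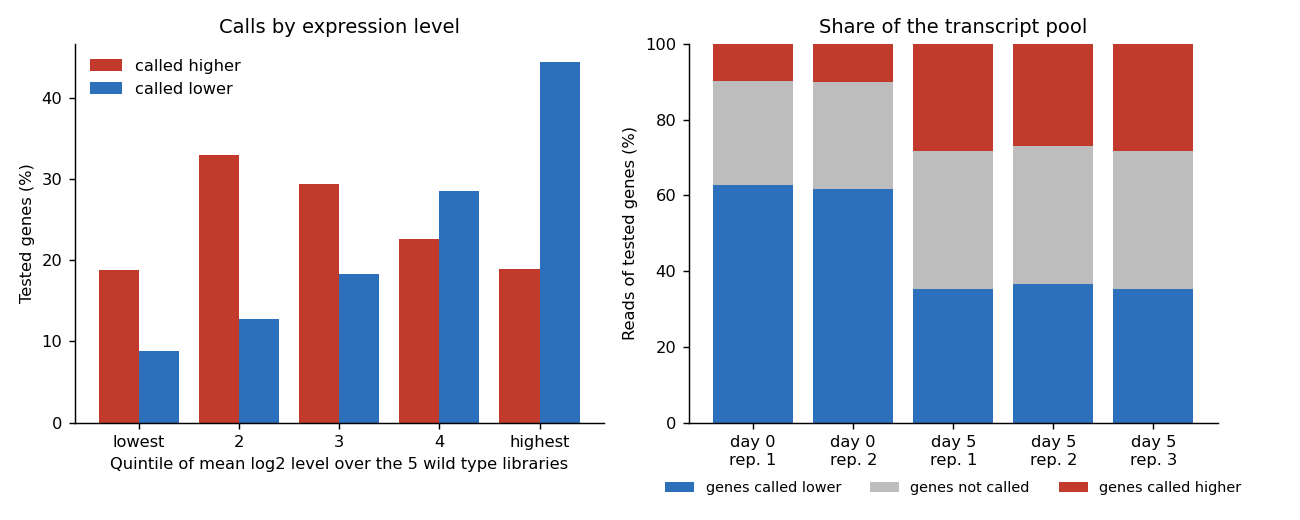
The left panel shows the percentage of tested genes called higher (red) and lower (blue) in 5 groups of equal size ordered by mean log2 level over the 5 wild type libraries. The right panel shows, for each library, the percentage of reads of tested genes that belongs to genes called lower, not called and called higher, where the red share grows from about 10.1% or less at day 0 to 27.0% or more at day 5.

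Of the 10 genes that gained the most transcript in absolute CPM, 9 code for secreted or matrix proteins, and the other is the membrane receptor Havcr1, described below. CPM is not corrected for gene length, so these gains are not compared between genes. Spp1 (chr5:104435118-104441050, GRCm38), which encodes the secreted phosphoprotein osteopontin, stood at 865 and 1414 scaled CPM at day 0 and at 17070, 14360 and 12510 at day 5. The day 5 libraries all lie far above both day 0 libraries, a log2 fold change of 3.71 ± 0.22 (adjusted p = 1.55e-07, limma). Clu, the extracellular chaperone clusterin, stood at 442 and 452 and then at 3308, 3154 and 3498. C3, the central complement component, stood at 15.4 and 89.3 and then at 1589, 1518 and 2005. Its day 0 libraries differed from each other, and the rise of 5.48 ± 0.52 log2 units became 4.23 when day 0 replicate 1 was left out and 6.73 when replicate 2 was. The fibrillar collagens Col3a1 (136 and 101, then 834, 981 and 1186), Col1a1 (91.0 and 73.2, then 618, 853 and 1301) and Col1a2 (149 and 107, then 735, 862 and 1236) also rose without overlap. So did Mgp, an inhibitor of matrix calcification (116 and 83.8, then 1244, 760 and 750), and Sparc, a collagen-binding matrix protein (392 and 259, then 1076, 1037 and 1299). Apoe, a lipoprotein ligand made by macrophages among other cells, stood at 282 and 998 and then at 1722, 1374 and 1325. Its rise of 1.46 ± 0.36 log2 units became 0.55 when day 0 replicate 1 was left out and 2.37 when replicate 2 was.

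The largest losses in CPM fell on mitochondrial and tubular transcripts. Gpx3, a secreted glutathione peroxidase made by the proximal tubule, stood at 25260 and 36060 scaled CPM at day 0 and at 10340, 8763 and 6374 at day 5, a log2 fold change of -1.86 ± 0.34. The mitochondrially encoded mt-Co1, a subunit of cytochrome c oxidase, stood at 31340 and 33420 and then at 11640, 12700 and 10910. For mt-Cytb, of respiratory complex III, the values were 21580 and 21140 and then 6707, 6498 and 6587. The complex I subunits mt-Nd1, mt-Nd2, mt-Nd4 and mt-Nd5 fell by 1.58, 1.91, 1.67 and 1.72 on the log2 scale. All 16 tested genes of the mitochondrial genome fell. Kap, the kidney androgen-regulated protein, stood at 33310 and 11240 at day 0 and at 1487, 2537 and 6949 at day 5. Within each group its highest library was the Y-linked one, and its log2 fold change of -2.70 ± 0.62 was -2.46 with the sex-chromosome pattern as a covariate. It was -1.92 when day 0 replicate 1 was left out and -3.49 when replicate 2 was. Slc34a1, the main phosphate transporter of the proximal tubule brush border, fell by 2.60 on the log2 scale.

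The steepest rises were led by Havcr1, a marker of injured tubule epithelium. Havcr1 (KIM-1, chr11:46735080-46779578), a phosphatidylserine receptor of injured proximal tubule cells, stood at 5.63 and 1.39 scaled CPM at day 0 and at 703, 623 and 1195 at day 5, a log2 fold change of 7.89 ± 0.59 (adjusted p = 5.54e-07, limma). Krt20, an intermediate filament keratin also listed as a urothelial marker, stood at 0.424 and 0.665 and then at 184, 127 and 259 (7.46 ± 0.54). Timp1, an inhibitor of matrix metalloproteinases, stood at 0.242 and 0.423 and then at 72.4, 96.9 and 91.2 (6.71 ± 0.49). In each of these 3 genes all day 5 libraries lie far above both day 0 libraries, which held few reads. Lcn2, the iron-siderophore binding protein NGAL, stood at 6.23 and 3.93 and then at 536, 347 and 476 (6.35 ± 0.32). Serpina10, an inhibitor of coagulation factor X, stood at 0.908 and 2.48 and then at 111, 109 and 143 (5.88 ± 0.29). Aoc1, the diamine oxidase that breaks down histamine and putrescine, stood at 5.21 and 6.10 and then at 262, 285 and 380 (5.64 ± 0.27). The 12 steepest rises, taken among genes whose groups do not overlap, were called in all 18 alternative settings. The others were Sprr2f, C3, the neutrophil chemokine Cxcl2, the leukocyte adhesion receptor Vcam1 (13.3 and 9.13, then 365, 315 and 568), the cytokine signalling inhibitor Socs3 (2.85 and 4.29, then 151, 169 and 103) and Lgi2 (0.605 and 1.15, then 45.1, 43.8 and 47.2).

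The steepest falls were spread over distal and proximal tubule genes. Pvalb (chr15:78191114-78206400), a calcium-binding protein of the early distal convoluted tubule, stood at 36.4 and 44.1 scaled CPM at day 0 and at 0.0945, 0.252 and 0.0438 at day 5, a log2 fold change of -6.02 ± 0.22 (adjusted p = 2.24e-08, limma), the smallest p of all genes. Egf, the growth factor precursor of the thick ascending limb and distal tubule, stood at 1735 and 2850 and then at 165, 234 and 117 (-3.75 ± 0.53). Dnase1, a secreted nuclease, stood at 245 and 546 and then at 32.9, 35.0 and 16.4 (-3.75 ± 0.43). In these 3 genes every day 5 library lay below both day 0 libraries. The steepest falls were taken among genes whose groups do not overlap, so this separation was fixed by the choice. Gatm, which makes the creatine precursor guanidinoacetate, stood at 1129 and 1497 and then at 120, 161 and 60.6 (-3.62 ± 0.55). Chrna4, a nicotinic receptor subunit, stood at 72.5 and 77.0 and then at 8.84, 6.40 and 2.37 (-3.72 ± 0.42). Ces1e, a carboxylesterase, stood at 92.4 and 93.0 and then at 5.91, 7.16 and 4.91 (-3.86 ± 0.27). Clec2h, Spp2, Cyp2d12 and Pde6a fell by 3.94, 3.70, 3.57 and 3.59 on the log2 scale.

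Some of the falling genes differed widely between the day 0 libraries, which also differ in their sex-chromosome pattern. Ces1g stood at 91.7 scaled CPM in the Y-linked day 0 library and at 3.08 in the other, and at 0.189, 0.504 and 0.745 at day 5. Its log2 fold change of -4.26 ± 0.91 became -1.92 when day 0 replicate 1 was left out and -6.61 when replicate 2 was, and it was called in both fits. Inmt, an indolethylamine methyltransferase, stood at 868 and 203 and then at 17.1, 24.0 and 55.5, with log2 fold changes of -2.82 and -4.91 in those fits. For Ugt2b38, a glucuronosyltransferase, the day 0 values were 934 and 76.8 against 34.6, 46.0 and 111, and the call was lost without day 0 replicate 1 (-0.45 against -2.25). Hsd17b11 (556 and 120, then 114, 96.1 and 126) and Serpinf2 (475 and 87.6, then 46.1, 38.6 and 124) lost theirs in the same fit, at -0.12 and -0.54. All 3 calls were also lost without day 5 replicate 1 and without day 5 replicate 2, and that of Hsd17b11 without day 5 replicate 3. These 3 genes have day 5 libraries above the lower day 0 library, so their groups overlap. The part of the sex-chromosome pattern in these differences was not tested.

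**Figure D3:**
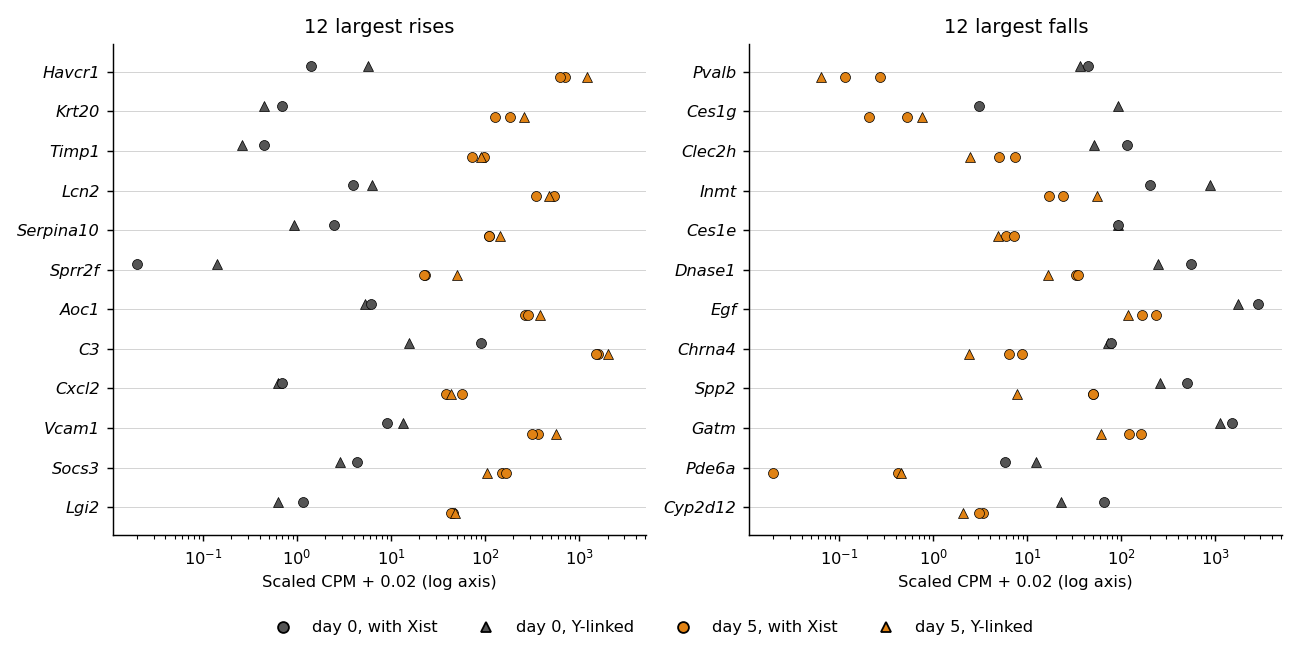
Scaled CPM on a log axis for each of the 5 wild type libraries in the 12 steepest rises (left) and the 12 steepest falls (right), with day 0 in grey, day 5 in orange, Xist libraries as circles and Y-linked libraries as triangles. All 24 genes were chosen among those whose groups do not overlap, and the 2 day 0 libraries lie far from each other for Ces1g (91.7 and 3.08) and Inmt (868 and 203).

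A set of 46 genes went from near silence to clear expression, with at most 3 reads in both day 0 libraries together and at least 1 CPM in every day 5 library. No gene met the mirror rule. These genes entered the test through their day 5 reads, so their direction was fixed by the rule. The ratios that follow compare pooled reads relative to depth, with exact 95% intervals that cover counting error only. They leave out the TMM factors, which were higher at day 5, so they are larger than ratios of scaled CPM would be. Arhgap36, a regulator of hedgehog and protein kinase A signalling, had 1 read at day 0 and 1017 at day 5. Mmp7 (matrilysin), an epithelial metalloproteinase, had 1 and 980. Prss22, a secreted serine protease, had 3 and 768, a ratio of 178 (60.6 to 864). The collagen-induced secreted protein Cthrc1 had 2 reads and 585, a ratio of 203 (56.0 to 1681). Vgf, a neuropeptide precursor, had 2 and 424 (147, 40.5 to 1219). Sprr2f, the gene deleted in the knockout, had 2 reads and 2067 (718, 198 to 5929). Il1f6, the epithelial cytokine interleukin-36 alpha, had 0 reads at day 0 and 701 at day 5. Without the TMM factors this makes it at least 162-fold higher against a floor of 3 reads over the group. Chemokine genes complete the 10 most abundant: Ccl7 with 3 and 574 reads (133, 45.2 to 646), Cxcl3 with 1 and 485, and Cxcl5 with 0 and 437, at least 101-fold higher. Cthrc1 varied among the day 5 libraries (3.21, 10.2 and 13.8 scaled CPM), as did Cxcl3 (2.22, 7.66 and 12.5).

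The changes with the smallest adjusted p-values were not always the largest. The 10 smallest adjusted p-values belonged to Pvalb, Clu and Socs3, described above, and to 7 further genes. Dcdc2a, a doublecortin domain protein of cilia, stood at 20.6 and 22.3 scaled CPM and then at 130, 141 and 148 (2.67 ± 0.11, adjusted p = 4.36e-08, limma). Actn1, the actin crosslinker alpha-actinin, stood at 35.7 and 37.0 and then at 160, 188 and 182 (2.26 ± 0.10). Sox4, a transcription factor of progenitor cells, stood at 35.1 and 40.5 and then at 162, 195 and 174 (2.21 ± 0.10). Picking genes by small p-values favours a small spread within each group beside the difference between groups. Thy1, a surface glycoprotein of fibroblasts and lymphocytes, stood at 2.54 and 2.84 and then at 61.4, 54.6 and 76.9 (4.33 ± 0.20). The genes that fell here were Cmbl, a hydrolase (230 and 198, then 38.5, 37.4 and 42.7), the mitochondrial ornithine carrier Slc25a15 (200 and 199, then 56.1, 57.4 and 52.2) and Pcca, a subunit of propionyl-CoA carboxylase (186 and 183, then 45.6, 49.1 and 47.1).

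Sorting the genes by the letters of their symbols gave 204 families with at least 10 tested members, 5274 genes in all. A family here is a naming group, and its members can have different functions. Among those with the highest medians, chemokine and innate immune receptor genes prevailed. Of 11 Ms4a genes, membrane proteins of leukocytes, 9 rose and none fell (median log2 fold change 2.43), led by Ms4a6d (0.605 and 1.69, then 19.6, 15.1 and 18.9). In the Cxcl chemokines 8 of 12 rose (median 2.08), and in the Ccl chemokines 14 of 17 (1.91), with no fall in either. Ccl2, the monocyte attractant, stood at 0.303 and 1.93 and then at 27.1, 38.4 and 32.6. Of 12 Toll-like receptors 9 rose and Tlr12 fell (median 1.91), with Tlr2, a receptor for bacterial lipoproteins, at 2.24 and 2.54 and then at 26.4, 23.9 and 23.5. The C-type lectins (Clec) had 15 rises and 2 falls in 24 genes (1.36), and the falls were Clec2h and Clec16a, the latter not called with library size alone.

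Matrix and remodelling families followed. Of 18 matrix metalloproteinases (Mmp) 15 rose and none fell (median 1.76), among them Mmp14, a membrane-bound collagenase (24.5 and 22.7, then 158, 152 and 201). Among 43 collagen genes 25 rose and 5 fell (1.09). The rises included Col17a1, a hemidesmosome collagen of epithelia (0.363 and 0.181, then 10.7, 13.6 and 18.1), and Col12a1 (13.3 and 11.3, then 110, 101 and 126). The falls included Col4a3 (335 and 372, then 118, 143 and 99.3) and Col4a4 (425 and 362, then 168, 186 and 156), partner chains of the mature basement membrane network. Of 12 annexins, calcium-dependent membrane binders, 8 rose and 2 fell (1.11). Tumour necrosis factor receptors (Tnfrsf) had 12 rises in 17 genes (1.16) and the interferon-induced Ifi genes 12 in 17 (1.12), with no fall. Tnfrsf12a, the receptor of the cytokine TWEAK, stood at 31.3 and 20.7 and then at 131, 202 and 177.

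**Figure D4:**
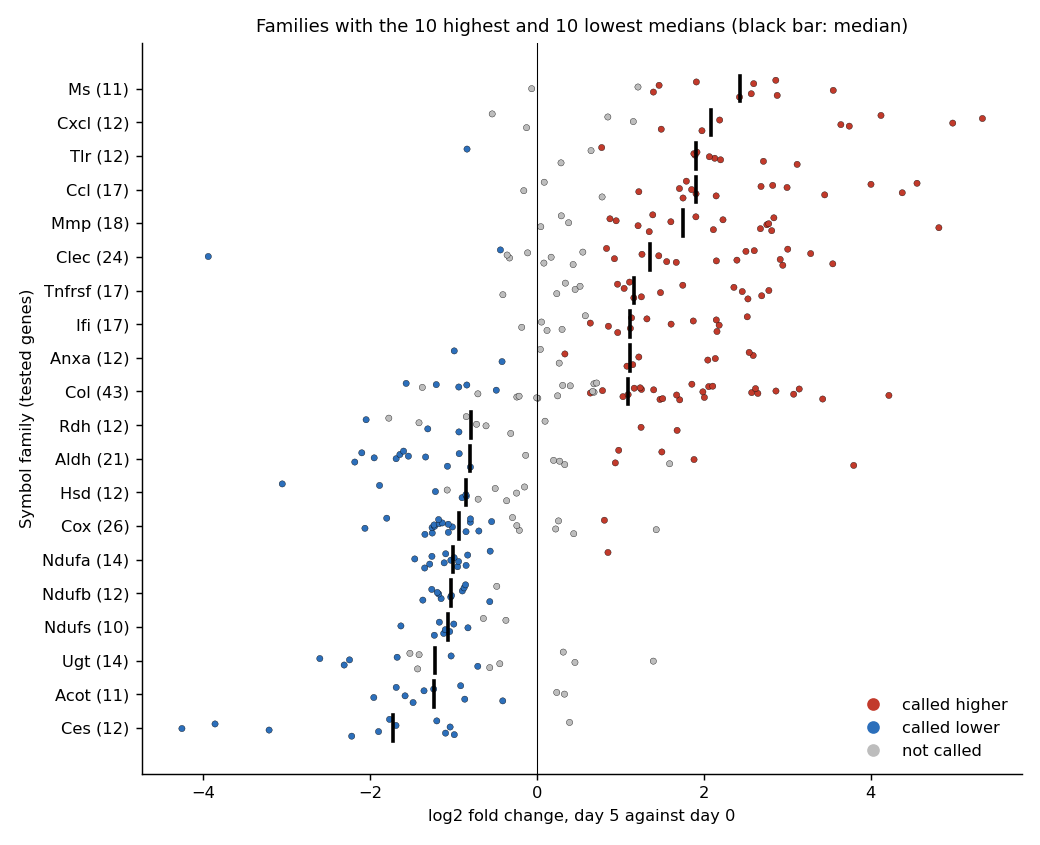
Log2 fold change at day 5 against day 0 for every tested gene of the 10 symbol families with the highest and the 10 with the lowest medians, with the number of genes in brackets and a black bar at each median. The medians run from 2.43 (Ms) to -1.73 (Ces), and nearly all dots of the Nduf families lie left of 0.

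Families of detoxifying and mitochondrial enzymes had the lowest medians. Of 12 carboxylesterases (Ces) 11 fell and none rose (median -1.73), with Ces1d at 253 and 441 scaled CPM and then at 40.9, 44.9 and 24.5. In the acyl-CoA thioesterases (Acot) 9 of 11 fell (-1.24), and in the glucuronosyltransferases (Ugt) 6 of 14 (-1.22), with no rise in either. Ugt3a2 stood at 1505 and 1169 and then at 241, 301 and 262. Subunits of respiratory complex I fell nearly without exception: 13 of 14 Ndufa, 11 of 12 Ndufb and 8 of 10 Ndufs genes, with medians of -1.01, -1.03 and -1.07. Ndufa10 stood at 333 and 292 and then at 112, 113 and 113, and Ndufs1 at 263 and 267 and then at 80.5, 95.6 and 80.0. The single rise, Ndufa4l2, was not called without day 0 replicate 2. Of 26 genes of the Cox family, mostly cytochrome c oxidase subunits, 18 fell and 1 rose (-0.93). The hydroxysteroid dehydrogenases (Hsd) had 6 falls in 12 genes, 1 of them Hsd17b11 above, and no rise (-0.85). The aldehyde dehydrogenases moved in both directions, with 11 falls and 5 rises in 21 genes (-0.80). Aldh6a1, of valine breakdown, stood at 607 and 674 and then at 137, 152 and 134. Retinol dehydrogenases (Rdh) had 3 falls and 2 rises in 12 genes (-0.79). The sign of all 20 of these medians was the same with library size alone and with RLE factors.

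Among the larger families, picked after their values were seen, some were uneven. Of 329 solute carriers (Slc) 157 fell and 55 rose, with a median of -0.42 that was -0.026 with library size alone. Slc6a19, which takes up neutral amino acids at the brush border, stood at 338 and 517 scaled CPM and then at 51.9, 44.6 and 22.3. The opposite was seen in Slc25a24, a mitochondrial ATP-magnesium carrier (5.02 and 5.26, then 46.2, 48.2 and 61.1), and in Slc16a3, the lactate exporter MCT4 (1.94 and 1.51, then 15.7, 20.8 and 23.1). Within the sodium phosphate carriers Slc34a1 fell, and Slc34a2 rose from 7.69 and 7.43 to 58.3, 45.8 and 53.4. Of 81 genes whose symbols begin with Atp, mainly ion pumps and ATP synthase subunits, 43 fell and 10 rose (median -0.62). The ATP synthase subunit Atp5b stood at 3782 and 3857 and then at 1283, 1456 and 1432. Of 85 Cd antigens 52 rose and 9 fell (1.05), with the hyaluronan receptor Cd44 at 3.15 and 3.63 and then at 96.6, 94.1 and 165. Of 364 zinc finger genes (Zfp), 58 rose and 19 fell (0.13), and 287 were not called. With library size alone 211 rose and 5 fell. In the Fam and Ccdc families, whose members share only a naming scheme, 34 of 137 and 23 of 107 genes rose and 27 and 17 fell. Among all tested genes 24.5% rose and 22.6% fell. In the Tmem genes 34 of 211 rose and 72 fell (-0.18), and with library size alone 77 and 32 (0.22).

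In 23 lists of genes grouped by function, the share of rises ran from 0 to 80.5% and the share of falls from 0 to 91.3%. Proteoglycans, glycoproteins and fibulins of the matrix had the largest share of rises, with 33 of 41 higher, none lower and a median of 1.83. Fn1 (fibronectin) stood at 72.8 and 48.4 scaled CPM and then at 419, 398 and 500. Thbs2, a matricellular thrombospondin, stood at 6.17 and 4.11 and then at 42.1, 47.7 and 55.4. Tgfbi and the microfibril protein Fbn1 rose by 2.56 and 2.48 log2 units. Among 40 genes of the actin cytoskeleton 31 rose and 2 fell (median 0.95), with the actin-sequestering thymosin Tmsb10 at 86.0 and 64.2 and then at 538, 556 and 586. Tpm1 (tropomyosin) and Arpc1b, of the branching complex Arp2/3, rose by 1.79 and 2.15 log2 units. Those that fell were Vil1, the villin of the brush border (231 and 203, then 91.5, 113 and 132), and Rdx, which links actin to the membrane and which was not called with library size alone.

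Guidance and coagulation genes mostly rose, with exceptions. Of 46 axon guidance ligands and receptors, which also steer epithelial and vascular growth, 28 rose and 5 fell (median 0.68). The netrin receptor Unc5b stood at 14.9 and 14.2 scaled CPM and then at 43.9, 39.9 and 46.0, and the ephrin receptor Epha2 at 10.4 and 11.4 and then at 31.9, 42.7 and 35.8. Slit3 rose by 1.88 log2 units, and its relative Slit2 stood at 45.9 and 74.5 and then at 30.2, 33.1 and 27.2, a call lost without day 0 replicate 2 and without day 5 replicate 3. Of 27 coagulation and fibrinolysis genes 14 rose and 6 fell (median 0.92). The plasminogen activator Plat (57.0 and 60.0, then 304, 240 and 363) rose, as did F3, the tissue factor that starts coagulation (17.1 and 15.8, then 62.3, 82.9 and 60.0). Fgg, a fibrinogen chain, stood at 6.72 and 9.31 and then at 113, 50.5 and 98.2. The falls included F13b, a carrier subunit of factor XIII (112 and 175, then 26.6, 28.2 and 16.5).

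Of 20 genes of retinoid metabolism 7 rose and 6 fell (median 0.18). Those that rose include Aldh1a2, which makes retinoic acid (3.93 and 5.44 scaled CPM, then 88.5, 63.7 and 63.0), and the retinol uptake receptor Stra6 (3.75 and 8.76, then 44.7, 59.4 and 82.2). Those that fell include Cyp26b1, which degrades retinoic acid (23.1 and 18.6, then 3.36, 1.11 and 1.58), and Lrat, which stores retinol as esters (5.27 and 7.37, then 1.65, 1.06 and 0.745). Dhrs3, Dhrs4, Rdh14 and Rdh16, which interconvert retinol and retinal or related compounds, fell by 1.14, 1.45, 0.94 and 2.05 on the log2 scale. Rdh10, a retinol dehydrogenase, went the other way (65.6 and 42.4, then 120.1, 118 and 142), as did Rdh12 outside the list (0.424 and 1.21, then 3.40, 3.22 and 3.99). The retinoic acid receptors Rara and Rarg rose by 0.77 and 0.89 log2 units. Sphingolipid genes were divided as well, with 11 rises and 12 falls in 33 (median -0.21, and 0.21 with library size alone). Among the 11 rises were the kinase Sphk1, which makes sphingosine 1-phosphate (11.2 and 13.6, then 48.1, 47.7 and 56.5), and its exporter Spns2 (38.4 and 76.7, then 158, 214 and 180). The receptor S1pr2 for the same lipid also rose (4.00 and 3.44, then 20.3, 15.9 and 19.5). None of the 12 falls is named here, so these genes do not stand for the list.

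Creatine, taurine, carnitine and kynurenine metabolism was the list with the largest share of falls, 21 of 23, with no rise and a median of -1.47. Haao, of kynurenine breakdown, stood at 232 and 203 scaled CPM and then at 38.9, 42.7 and 46.6, and Kmo, a step before it, at 118 and 143 and then at 27.8, 31.2 and 20.2. Slc22a5, the carnitine importer, stood at 270 and 290 and then at 108, 98.2 and 75.2. Aldh9a1, of carnitine synthesis, stood at 490 and 381 and then at 128, 130 and 143. Of 16 heme genes 11 fell and 1 rose (median -0.49), and with library size alone 6 and 4 (-0.074). Fech, which inserts iron into heme, stood at 144 and 144 and then at 77.9, 74.8 and 83.2. The rise was Hmox1, the heme oxygenase (29.1 and 22.7, then 47.8, 46.2 and 59.6; adjusted p = 0.0444, limma), which edgeR and DESeq2 did not call (0.0611 and 0.0826) and which limma did not call when any 1 wild type library was left out (0.0642 to 0.216).

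Lysosomal, autophagy and nuclear receptor genes fell more often than they rose, but by amounts close to the effect of scaling. Of 40 lysosomal membrane and proton pump genes 24 fell and 7 rose (median -0.55), and with library size alone 16 and 11. The pump subunit Atp6v1a stood at 577 and 580 scaled CPM and then at 240, 260 and 237. Cd68, a lysosomal protein of macrophages, went the other way (6.48 and 4.71, then 30.8, 27.4 and 33.6). Of 37 autophagy genes 17 fell and 3 rose (median -0.30), but with library size alone 4 fell and 12 rose (median 0.12). Gabarapl1, which builds autophagosome membranes, stood at 893 and 1079 and then at 377, 373 and 344, and it fell under both scalings. Of 38 nuclear receptors 17 fell and 3 rose (median -0.39), and 13 and 13 with library size alone. Hnf4a, which maintains the proximal tubule programme, stood at 776 and 822 and then at 264, 288 and 268. Esrra, a regulator of mitochondrial genes (206 and 237, then 103, 104 and 95), Ppara, of fatty acid oxidation (40.9 and 60.0, then 13.6, 13.7 and 20.6), and Vdr, the vitamin D receptor (333 and 299, then 151, 116 and 130), also fell. Lipid droplet and lipoprotein genes had 17 falls and 7 rises in 46 (median -0.11, and 0.31 with library size alone), with Dgat2, which makes triglycerides, at 180 and 214 and then at 54.0, 55.1 and 59.3.

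**Figure D5:**
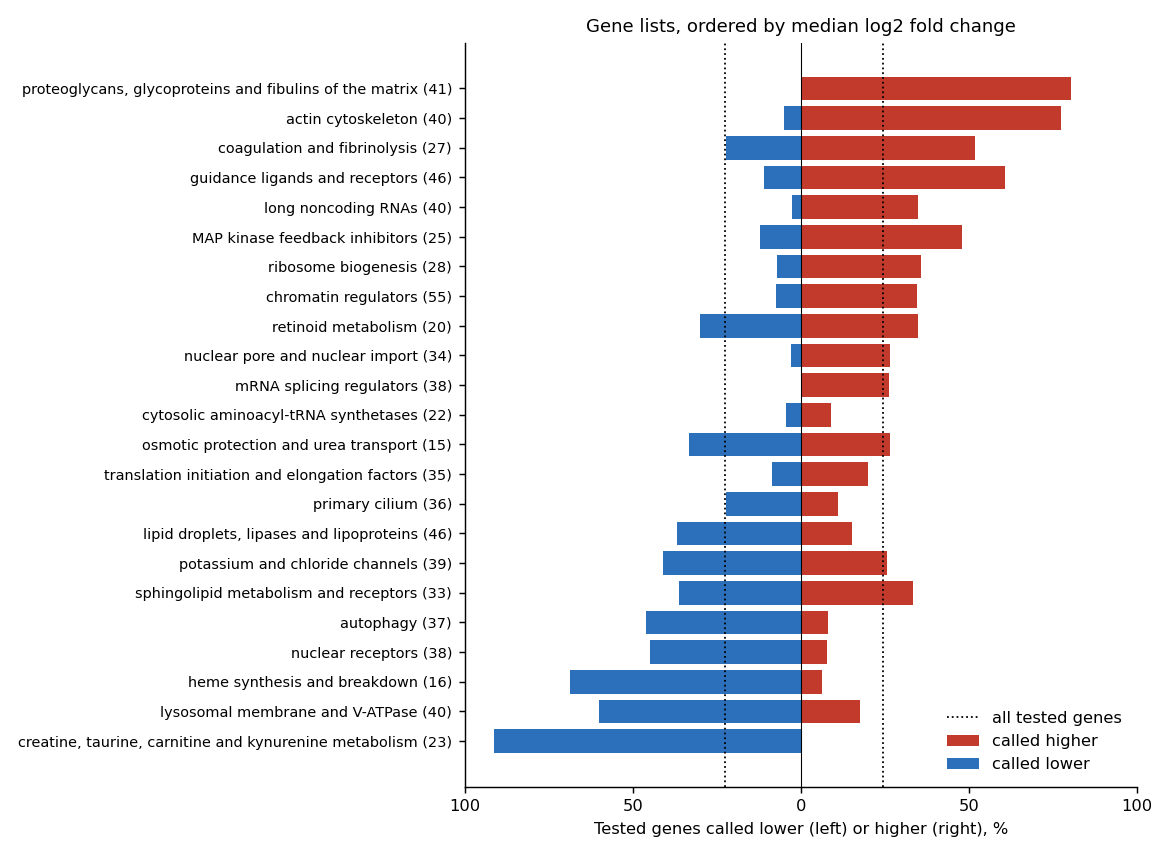
Percentage of tested genes called lower (blue, to the left) and higher (red, to the right) in 23 functional lists, ordered by their median log2 fold change, with the number of tested genes in brackets. Dotted lines mark the shares among all tested genes, 22.6% lower and 24.5% higher, and the lists run from matrix proteoglycans (80.5% higher) to creatine, taurine, carnitine and kynurenine metabolism (91.3% lower).

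Ion channels, osmotic protection and cilia gave mixed lists. Of 39 potassium and chloride channels 16 fell and 10 rose (median -0.18, and 0.22 with library size alone). Kcnj15, a basolateral potassium channel, stood at 866 and 788 scaled CPM and then at 272, 257 and 311. Cftr, the chloride channel of cystic fibrosis (7.26 and 4.96, then 13.7, 17.2 and 14.5), and Clic1 (118 and 100.1, then 262, 269.5 and 307) rose. Of 15 osmotic protection and urea transport genes 5 fell and 4 rose (median 0.042), and with library size alone 4 and 8 (0.46). Sord, sorbitol dehydrogenase, stood at 1505 and 1664 and then at 319, 296 and 290, and Slc38a2, an osmotically induced amino acid importer, at 99.0 and 101 and then at 164, 208 and 157. In 36 genes of the primary cilium 8 fell and 4 rose (median -0.072, and 0.34 with library size alone). The transport protein Ift122 was among those that fell (77.2 and 73.2, then 42.3, 48.1 and 46.1). The share of cilium genes that fell, 22.2%, was near the 22.6% of all tested genes. The share of osmotic genes that rose, 26.7%, was near the 24.5% of all tested genes. Of 25 MAP kinase feedback inhibitors 12 rose and 3 fell (median 0.23). Ier5 and Spred3 rose by 1.89 and 2.14 log2 units, and Errfi1, an inhibitor of the EGF receptor, stood at 566 and 1033 and then at 276, 300 and 231.

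Lists of genes for making RNA and protein had medians near 0, like the cilium and osmotic lists. Among all tested genes 24.5% rose, near the shares of splicing regulators (26.3%) and of nuclear pore and import genes (26.5%) below. Among 22 cytosolic aminoacyl-tRNA synthetases, which charge tRNAs, 2 rose and 1 fell. The valine enzyme Vars stood at 49.5 and 47.8 scaled CPM and then at 103, 97.1 and 132. In 35 translation factors 7 rose and 3 fell (median 0.014, and -0.0077 with RLE factors), including Eif4ebp1, a repressor of cap-dependent translation (22.8 and 26.8, then 58.6, 67.6 and 95.3). Of 38 splicing regulators 10 rose and none fell (median 0.13), led by Celf2 (5.87 and 6.53, then 20.9, 21.5 and 20.9). Nuclear pore and import genes had 9 rises and 1 fall in 34, and ribosome biogenesis 10 and 2 in 28. Utp20, of small ribosomal subunit assembly, was the exception in size (99.4 and 92.3, then 26.9, 31.2 and 35.6). Of 55 chromatin regulators 19 rose and 4 fell (median 0.19). Uhrf1, which guides maintenance DNA methylation in dividing cells, stood at 5.51 and 3.63 and then at 22.9, 23.7 and 32.6, and Dnmt1, its partner methyltransferase, at 29.4 and 27.6 and then at 47.6, 50.1 and 54.5. Tet2, a DNA demethylase, stood at 107 and 95.7 and then at 56.7, 49.8 and 41.8. With library size alone, rises were in the majority in each of these 6 lists. By share they ran from 34 of 38 splicing regulators down to 42 of 55 chromatin regulators.

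Some neighbouring genes changed together. Along the chromosomes, 27 runs of at least 4 consecutive tested protein-coding genes all rose at least 2-fold, 152 of the 2146 protein-coding genes that did so. In 6 runs all genes fell at least 2-fold, 34 of 1256. Genes that were not tested were skipped, so members of a run need not be direct neighbours. How many runs chance would give was not tested. Several hold families of similar genes, whose near-identical copies can share reads. The longest of the runs that rose was the Ms4a cluster on chromosome 19 (11301249 to 11604849, 10 genes, median log2 fold change 2.50). Of 4 runs of 8 genes, 1 held Clec4 lectins with Cd163 on chromosome 6 (122921848 to 124330527, 8 genes, 2.45) and another Mmp12, Mmp3, Mmp8, Mmp27 and Mmp7 with the apoptosis inhibitors Birc2 and Birc3 on chromosome 9 (7344381 to 7873186, 8 genes with Tmem123, 2.01). The other 2 lie on chromosome 1 (171559193 to 172028444, with the lymphocyte receptors Cd48, Cd84 and Ly9) and on chromosome 14 (41172214 to 44103534, with Sftpd, Ear2 and predicted genes). The interleukin 1 receptor cluster on chromosome 1 (39900913 to 40551705) had 7 genes with a median of 2.32. On chromosome 17 (34119541 to 34216321) 7 antigen processing genes rose, among them the peptide transporter Tap1 (16.2 and 20.7, then 52.3, 43.3 and 51.1). Ccr2, the receptor of Ccl2, lies in another run on chromosome 9 and stood at 1.63 and 2.66 and then at 58.2, 38.4 and 53.9. On chromosome 11 (100131758 to 100261029) the keratins Krt15, Krt19, Krt14 and Krt17 of stratified and simple epithelia had a median of 3.25, with Krt19 at 5.08 and 5.92 and then at 60.2, 94.5 and 158.

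Among the runs that fell, the 13 protein-coding genes of the mitochondrial genome had a median of -1.58 and lay between -1.91 and -1.38. The 5 carboxylesterases Ces1c to Ces1g on chromosome 8 (93099015 to 93337308) had a median of -3.21. Ces1f, however, stood at 720 and 86.2 and then at 30.3, 43.6 and 113, so that its groups overlap. On chromosome 13 (93616675 to 93943016) lie Bhmt, Bhmt2, Dmgdh and Arsb. Bhmt2, a methyltransferase, stood at 121 and 122 and then at 26.5, 29.9 and 31.2. Dmgdh, an enzyme of choline breakdown, stood at 103 and 150 and then at 20.4, 24.4 and 24.6. Klk1, a tissue kallikrein in a run of 4 on chromosome 7, stood at 2891 and 3592 and then at 341, 451 and 253.

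The chemokine run on chromosome 5 (90759360 to 90905938) had the highest median of all runs, 3.69, over Cxcl5, Ppbp, Pf4, Cxcl3, Cxcl1 and Cxcl2. Cxcl1, a neutrophil attractant, stood at 2.54 and 2.12 scaled CPM and then at 89.3, 135 and 58.0, and Cxcl2, its close relative, at 0.605 and 0.665 and then at 38.1, 57.3 and 43.0. Pf4 and Ppbp, better known from platelets, stood at 1.27 and 1.39 and then at 10.8, 11.7 and 18.8, and at 0 and 0 and then at 2.60, 3.07 and 8.63. The promoters of Cxcl1, Cxcl2 and Cxcl3 are shown because these genes are consecutive in the run, rose together and share a stretch. The windows run from 100 bases before the annotated start to 20 after it, on the plus strand of GRCm38.p6, from RefSeq, and capitals mark the match to the NF-kappaB motif searched on both strands.
Cxcl1 (chr5:90891145-90891264): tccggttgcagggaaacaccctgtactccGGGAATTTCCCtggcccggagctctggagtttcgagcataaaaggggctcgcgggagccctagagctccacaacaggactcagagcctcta
Cxcl2 (chr5:90903799-90903918): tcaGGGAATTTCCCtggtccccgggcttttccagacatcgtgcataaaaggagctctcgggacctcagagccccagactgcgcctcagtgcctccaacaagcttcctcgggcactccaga
Cxcl3 (chr5:90786001-90786120): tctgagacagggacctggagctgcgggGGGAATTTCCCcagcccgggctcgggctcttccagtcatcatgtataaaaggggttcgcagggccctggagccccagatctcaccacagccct
The same letters stand 60, 86 and 62 bases before the starts of Cxcl1, Cxcl2 and Cxcl3, each as 2 overlapping matches on opposite strands. In the 300-base promoters of Ppbp and Pf4 no match was found. Of 32851 promoters of that length in the table, 8.46% hold a match. A match describes the letters only. Promoters were matched for 76.0% of the protein-coding genes that rose at least 2-fold, under the 80% that was required, so motif shares were not compared between rising and falling genes.

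Long noncoding RNAs that rose included Dnm3os, the host of a microRNA cluster (2.06 and 1.81 scaled CPM, then 15.4, 11.0 and 9.07), and Morrbid (0.605 and 0.0604, then 3.31, 2.67 and 5.13). Zfp469, annotated in GENCODE M21 as a long intergenic RNA, rose by 3.44 ± 0.36 log2 units. The imprinted RNAs H19 (0 and 1.57, then 3.17, 13.3 and 13.2), Rian (0.787 and 1.51, then 5.62, 15.5 and 19.8) and Meg3 (3.03 and 6.65, then 12.2, 32.1 and 44.9) were called higher, but none of the 3 without day 0 replicate 1, where the adjusted p was 0.163, 0.0504 and 0.105 (limma), nor in the Xist libraries alone. The snoRNA host genes Gas5, Zfas1 and Snhg17 rose by 0.68, 0.94 and 0.92 log2 units. Falls were led by Halr1 at the Hoxa cluster (6.66 and 14.7, then 2.46, 1.81 and 1.31) and by Hnf4aos, antisense to Hnf4a (12.9 and 14.6, then 3.59, 3.33 and 3.07). The sources used here do not say whether reads were counted by strand, so reads of Hnf4aos and Dnm3os cannot be told from those of the genes they overlap. Prdm16os, Tmem61, Lhx1os and Pantr1 fell by 1.72, 1.56, 1.28 and 1.06 on the log2 scale.

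For 9566 genes no change was called, and for 7649 of them the 95% interval lay within a 2-fold change either way. The median interval over all genes reached 0.41 log2 units to each side of its estimate. Prkar1a, a regulatory subunit of protein kinase A, stood at 296 and 301 scaled CPM and then at 296, 305 and 293 (95% interval -0.17 to 0.17). Sumo2, a protein modifier (65.2 and 68.0, then 65.9, 68.4 and 66.2), the RNA-binding Hnrnpl (279 and 256, then 270, 268 and 273) and Drosha, which starts microRNA processing (51.1 and 51.8, then 52.5, 50.1 and 51.4), were as level. Hmgb1, Snx4, Zc3h15 and Cggbp1 had intervals of similar width around 0. This holds relative to the TMM factors, since with library size alone these 8 genes were called higher by 0.41 to 0.44 log2 units.

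By the interaction term of limma, the wild type response could be told from that of the Sprr2f knockout in 1 gene of 18093 (0.00553%). In the same test 1374 genes had an unadjusted p under 0.05. Every knockout day 0 library carried Y-linked transcripts, and at day 5 knockout replicates 1 and 3 held Xist and replicate 2 was Y-linked. Sex-chromosome pattern and day therefore cannot be fully told apart in the knockout. Noct (chr3:51224447-51251644), a phosphatase for NADP(H) with daily rhythm, stood at 59.0 and 81.3 scaled CPM in wild type at day 0 and at 22.9, 35.3 and 21.8 at day 5. It fell by 1.39 ± 0.21 log2 units in wild type and rose by 0.87 ± 0.18 in the knockout, a difference of -2.26 (adjusted p = 0.0356, limma). The call was lost without day 5 replicate 1, day 5 replicate 3 or day 0 replicate 2 (adjusted p = 0.171, 0.0923 and 0.164, limma), and over the alternatives the adjusted p ran from 0.0046 to 0.171. Without day 0 replicate 1 the interaction called more genes. In that fit the only wild type day 0 library held Xist, and every knockout day 0 library was Y-linked. Sprr2f itself, the gene deleted in the knockout, changed by 5.75 ± 0.66 log2 units in wild type and by 1.49 ± 0.55 in the knockout. Some reads were thus assigned to Sprr2f in the knockout, and their source was not tested. The difference of 4.26 ± 0.86 was not called (adjusted p = 0.334, limma), so genes with large differences can go uncalled here.

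Markers of other cell types moved with these groups. Summed scaled CPM of 8 macrophage markers went from 180 and 173 to 996, 810 and 999, and all 8 rose. The 6 neutrophil markers summed to 3.45 and 5.20 and then to 54.0, 52.9 and 81.2, though the defining Ly6g had almost no reads, and the 5 tested all rose. T cell markers rose in 6 of 7 genes (7.57 and 7.49, then 33.6, 24.0 and 17.2), and B cell markers in 1 of 3. The 6 fibroblast and pericyte markers all rose (390 and 325, then 1910, 2170 and 2900), as did the 6 urothelial markers (23.4 and 12.4, then 230, 221 and 448). Krt20 held most of the urothelial sum at day 5, and among the other 5 the uroplakin Upk1a stood at 5.99 and 3.93 and then at 9.50, 14.4 and 26.6. The part of these cells in the immune, matrix and keratin genes above was not tested.

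Listed markers of the epithelial segments did not all fall alike. All 10 proximal tubule and all 4 distal convoluted tubule markers fell, with medians of -2.33 and -2.60. Of 6 intercalated cell markers 5 fell, of 5 thick ascending limb markers 2, and of 6 principal cell markers 2. These lists are short, and 22.6% of all tested genes fell. The thick ascending limb and principal cell medians were -0.73 and -0.28, but Slc12a1 of the thick ascending limb fell by 2.01 on the log2 scale. Markers were not counted with library size alone. Aqp2, the water channel of the collecting duct, stood at 257 and 242 and then at 266, 286 and 184, and was not called. Aqp3 of the same list was called lower (114.5 and 128.4, then 56.2, 65.9 and 53.9), as was Fxyd4 (81.5 and 59.1, then 48.8, 52.4 and 51.4). In podocytes 1 of 6 markers fell and 1 rose, and in endothelium 1 of 6 fell. Erythroid transcripts summed to 209 and 216 at day 0 and to 3909, 1069 and 238 at day 5. The 4 haemoglobin genes were called higher with all libraries, but none of them without day 5 replicate 1, day 5 replicate 2 or either day 0 library. Adipocyte markers summed to 0.0605 in day 0 replicate 1 and to 29.8 in replicate 2, against 15.9, 28.3 and 36.5 at day 5, and none of them was called. Day 0 replicate 1 was also the lower library for Apoe and for Fabp4, a fatty acid carrier of fat and endothelium (67.7 and 103, then 131, 171 and 159), and the part of adipose tissue in them was not tested.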

How the data were processed

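RNA from whole left kidneys was sequenced as 50-base reads in 12 libraries, and the 5 wild type libraries are described. The deposited values are counts per gene scaled by the authors to CPM, since each column sums to 1000000. Per the submitters' processing notes, STAR, SAMtools, HTSeq and the build GRCm38.p6 were used; versions and strand setting are not given in the sources used here. Dividing by the smallest step gave whole reads for 100% of 665652 values (within 0.001), 16642432 to 19355574 per wild type library. Groups came from the labels.

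Genes with enough recovered reads (filterByExpr, minimum count 10, minimum total 15) were tested with limma 3.58.1 (R 4.3.3, trend) on log2(CPM/TMM factor + 0.5) over all 12 libraries in 4 groups, with Benjamini-Hochberg adjustment at 0.05. A typical gene's 95% interval reached 0.41 log2 units to each side. The procedure was tested on simulated data. edgeR 4.0.16, DESeq2 1.42.0 and 16 further settings were alternatives; RLE medians of lists were added after seeing the data. Coordinates and gene types are from GENCODE M21, promoters from RefSeq (GRCm38.p6).

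The members, gene lists, families and tests were chosen with earlier results of these data known. Named genes were the 12 steepest rises and falls without overlap and the 10 largest gains and losses in CPM. The 10 most abundant genes near silence in 1 group and the 10 smallest p-values were also named. In each list, family and run, the leading members or those with the smallest adjusted p in each direction were added. A few others (large families, markers, genes that differ between day 0 libraries) were chosen after their values were seen. No value was tested per list. Results for some withheld items are not reported here.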

Additional observations from a re-analysis of the deposited data

Results flagged for a closer look

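The response of Noct to obstruction differed between wild type and Sprr2f knockout kidneys by the interaction term of limma, with a log2 fold change of -1.39 in wild type and 0.87 in the knockout and a difference of -2.26 (-2.263). Both wild type day 0 libraries (59.0 and 81.3 scaled CPM) lay above all 3 at day 5 (22.9, 35.3 and 21.8). The adjusted p of 0.0356 was 0.0375 with edgeR and 0.00662 with the sex-chromosome pattern as a covariate, and it was 0.062 with library size alone.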

How the results depend on the processing

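The counts of 4440 rises and 4087 falls became 8560 and 2001 with library size alone, and 1712 and 1285 when a change beyond 1.5-fold was required. Without scaling factors, Ift20, Ezh1, Nup50, Eif4a2, Dars and Sema3b, called lower with them, stood at log2 fold changes of 0.029, 0.19, 0.18, 0.096, 0.014 and 0.086. In the other settings rises numbered 3534 to 4799 and falls 3263 to 4563, including edgeR (4330 and 4130) and DESeq2 (4214 and 4319), and leaving out 1 wild type library gave 3534 to 4033 rises and 3440 to 3722 falls. The interaction held 3 genes with the sex pattern as a covariate and 0 with library size alone, and 0 to 107 when 1 wild type library was left out, the highest without day 0 replicate 1. Of 426 genes followed through 18 settings, 391 were called, and 255 of these were called in every setting that tested them. With 2 libraries at day 0, a gene that differs between them has a wide error. No paired analysis was possible because the labels carry no replicate numbers. The sex-chromosome pattern differs within both groups, and whether the day 0 kidneys had sham surgery is not stated.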
